A study of Rattus norvegicus with 8 samples.

Results

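The 10 serotonin receptor genes described here are Htr2a, Htr2c, Htr1a, Htr1b, Htr1d, Htr1f, Htr4, Htr5b, Htr6 and Htr7. All probes carrying one of these names in the array annotation were taken, which gave 14 probes for 10 of the 35561 gene names on the array. Each probe is a designed DNA strand of 60 bases that binds the labelled copy of 1 transcript. The tissue was medial thalamus from male Sprague-Dawley rats, conscious during the sessions, on 8 single-colour arrays of 1 animal each. The occlusion group (4 arrays) came from rats whose trachea was blocked for 3 to 10 breaths at a time, with about 30 s of recovery, in daily sessions over 10 days. The control group (4 arrays) came from surgical controls that had sessions on the same days but no occlusion. All animals were killed within 10 min of the final session, and no age was given in the labels. The comparison asks which receptor transcripts differ in this tissue after 10 days of airway conditioning.

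Serotonin reaches the thalamus in fibres from the raphe nuclei of the brainstem and acts there on several receptor families. Receptors of the Htr1 and Htr5 families act through the inhibitory G proteins Gi and Go, those of the Htr2 family through Gq and phospholipase C, and Htr4, Htr6 and Htr7 through Gs and adenylyl cyclase. In the midline and intralaminar thalamus Htr7 is a well-known receptor of relay neurons, and Htr5b is known in rodents for its strong expression in the neighbouring habenula.

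A level here is the log2 signal of a probe minus the 75th percentile of its own array, so levels of different probes are not set against each other. A difference is the mean of the occlusion arrays minus the mean of the control arrays on that log2 scale. The share of spots well above background ran from 65.0% to 71.6%, and the 75th percentile of signal from 1439 to 2216. Differences compare 4 with 4 arrays unless another n is given, and some genes counted in the list medians had fewer values. The array pairs correlated between 0.953 and 0.986. Occlusion 3, control 3 and control 4 stood apart in marker genes of neighbouring tissue. They had the 3 lowest mean levels of habenula markers (-3.98, -4.88 and -3.07), against -1.71 to -0.23 on the other 5 arrays. Occlusion 3 and control 4 had the highest levels of the hypothalamic peptide gene Oxt (5.51 and 5.06). In tissue of this kind, fewer cells of a type and less RNA per cell cannot be told apart.

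Marker lists were also read by group. All 10 measured markers of thalamic relay neurons were higher on occlusion arrays (median difference 0.85), with list means of 0.95 to 1.44 on occlusion and -0.27 to 1.06 on control arrays. Among them 3 had saturated signals (Calb2 on 8 arrays, Slc17a6 and Prkcd on 4 each), so the size of their differences is not well measured. Of the measured markers of the reticular nucleus and other inhibitory neurons, 8 of 9 were lower (median -1.17), with list means of -2.98 to -0.37 on occlusion and -1.52 to 0.52 on control arrays. The choroid plexus and ependyma list was lower in 7 of 8 measured genes (median -0.56) and the oligodendrocyte list in 8 of 10 (median -0.52). Saturated signals also occurred for 3 of the oligodendrocyte genes. In none of these lists did a gene pass limma at an adjusted p of 0.05. Their part in the receptor differences given next was not tested.

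No receptor probe passed the test. A probe was tested if it was well above background on at least 4 of 8 arrays, which 8 of the 14 receptor probes, from 7 genes, were. With limma and Benjamini-Hochberg adjustment over all 27152 tested probes, 0 of the 8 had an adjusted p under 0.05, and the share called among all probes was 0%. The adjusted p of the receptor probes ran from 0.403 to 0.988, and 0.403 was also the smallest over all probes. Before adjustment 3 of the 8 (Htr2a probe 1, Htr1b and Htr1d) had a p under 0.05, beside 11.1% of all tested probes. Htr1b passed the filter through the occlusion arrays and Htr1d through the control arrays, so their counts carry no weight of their own. With the filter set to all 8 arrays, 1 of 5 receptor probes had an unadjusted p under 0.05. The groups did not overlap for 2 of the 8, beside 6.71% of all probes in either direction. On occlusion arrays 6 of the 8 were lower, beside 46.4% of all probes. Among the 6, Htr5b, Htr6 and Htr7 probe 2 turned direction under some of the alternatives given at the end. The median difference over the 8 was -0.26, beside 0.02 over all probes.

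**Figure D1:**
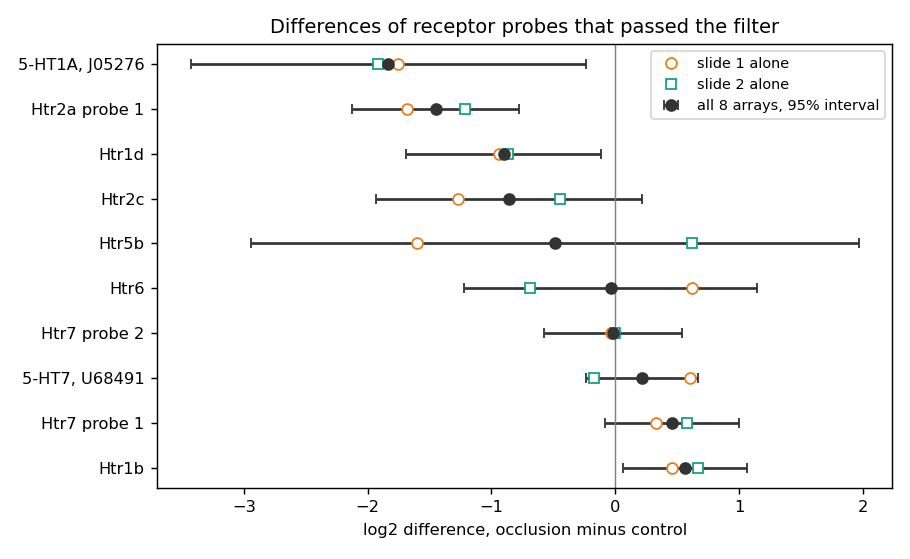
Difference between occlusion and control arrays (horizontal axis, log2, occlusion minus control) for the 8 receptor probes that passed the filter and 2 further probes named by accession. Filled points show all 8 arrays with their 95% limma interval, and open symbols show each slide alone (2 arrays per group). Htr2a probe 1 lies at -1.45 and Htr1d at -0.90, with both slides below 0, while Htr5b and Htr6 lie on opposite sides of 0 on the 2 slides.

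The probes of the 4 Htr1 genes are shown because these genes are close relatives and their probes share letters. Htr1b and Htr1d ran opposite ways, but both were near background, and Htr1a and Htr1f did not enter the test. The letters GACTT, chosen after the sequences were seen, searched on the strand of the probe and given in capitals, occur in all 4 Htr1 probes, in none of the other 10 receptor probes and in 7.54% of the 41012 distinct probes on the array (14.2% when both strands are searched).
Htr1a: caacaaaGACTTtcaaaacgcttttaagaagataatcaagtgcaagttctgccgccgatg
Htr1b: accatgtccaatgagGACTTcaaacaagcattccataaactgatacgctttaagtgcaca
Htr1d: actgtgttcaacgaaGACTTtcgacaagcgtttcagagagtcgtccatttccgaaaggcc
Htr1f: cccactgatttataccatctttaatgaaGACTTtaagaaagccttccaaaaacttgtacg
Aligned without gaps at the offset with most matches, the Htr1b and Htr1f probes matched at 36 of 47 aligned bases (76.6%), the closest pair of the 4. The Htr1b and Htr1d probes matched at 33 of 60 (55.0%), and the Htr1a and Htr1f probes, the least alike pair, at 22 of 58 (37.9%). In the rn3 build of the rat genome, as the files give it, the Htr1a probe lies at chr2:36356095-36356154 on the plus strand and the Htr1b probe at chr8:86719549-86719608 on the minus strand. The Htr1d probe lies at chr5:155199767-155199826 on the plus strand and the Htr1f probe at chr11:2260600-2260659 on the minus strand. Gene parts (exon, intron, untranslated region) at these positions were not looked up, since no annotation of that build was used.

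Htr2a encodes the serotonin 2A receptor, an excitatory receptor of cortical and other forebrain neurons that couples to Gq. Its probe 1 (chr15:55549339-55549398, plus strand) had levels of -4.95, -5.03, -4.73 and -3.68 on occlusion arrays 1 to 4, against -2.88, -3.16, -3.12 and -3.43 on control arrays 1 to 4. Every occlusion array was below every control array, with occlusion 4 nearest to the controls. The difference was -1.45 (SE 0.29, 95% interval -2.13 to -0.78), a 2.73-fold lower signal, with a limma p of 0.00103 and an adjusted p of 0.403. Among all tested probes, 2.82% were lower on occlusion without overlap. Slide 1 alone gave -1.69 and slide 2 alone -1.22. Leaving out any 1 array kept the difference between -1.76 and -1.31. Without occlusion 3, control 3 and control 4 together it was -1.54 (SE 0.45, n = 3 and 2). That alternative was chosen after seeing the data.

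The other 3 Htr2a probes gave no reading above background on any array. Probe 2 (chr15:55547949-55548008, plus strand), printed at 10 spots and placed 1390 bases from probe 1, had levels of -6.94 to -6.23 on occlusion and -6.35 to -5.96 on control arrays. Its difference of -0.47 ran the same way as that of probe 1, but probe 2 was above background on no array by that rule and did not pass the filter. The correlation of probes 1 and 2 over the 8 arrays was 0.52, a description in which the arrays share groups and slides. Probes 3 and 4 are annotated to another Htr2a transcript record, start at chr15:55478750-55478809 and chr15:55478716-55478775, and share 26 of their 60 bases. Their levels ran from -7.32 to -7.04 and from -8.11 to -7.17 on occlusion arrays, and from -7.25 to -6.90 and from -7.99 to -7.65 on control arrays. The lower Htr2a signal on occlusion arrays rests on probe 1 alone.

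Htr2c encodes the serotonin 2C receptor, which is also Gq-coupled and is abundant in the choroid plexus as well as in neurons. Its probe (chrX:31069148-31069207, minus strand) was above background on all 8 arrays. The levels were -3.17, -3.43, -5.10 and -2.72 on occlusion arrays 1 to 4, against -2.57, -2.76, -2.49 and -3.16 on control arrays 1 to 4. The groups overlapped, and occlusion 3 was far below the rest. The difference was -0.86 (SE 0.47, limma adjusted p = 0.513), and -0.36 without occlusion 3. Without all 3 arrays that stood apart, chosen after seeing the data, it was -0.44 (SE 0.24, n = 3 and 2). Means of the choroid plexus and ependyma list ran from -1.32 to -0.88 on occlusion and from -1.65 to -0.47 on control arrays. Of its 8 measured genes 7 were lower on occlusion arrays, among them Clic6 (-0.91), Kcne2 (-0.75), Foxj1 (-0.66) and Folr1 (-0.53). The exception, Ttr, the secreted thyroxine carrier of the choroid plexus, was highest on occlusion 3, at 3.08, with a difference of 1.83 (SE 0.69, adjusted p = 0.414). The part of choroid plexus in the Htr2c reading was not tested.

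**Figure D2:**
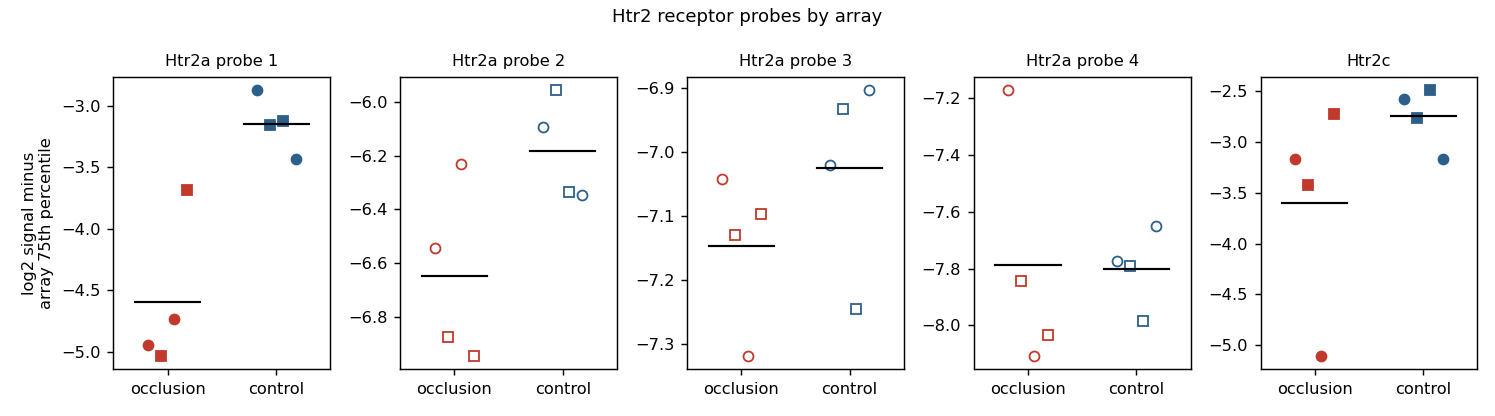
Level of each Htr2 probe (vertical axis, log2 signal minus the 75th percentile of the array, a separate scale per panel) on the 4 occlusion and 4 control arrays. Circles are slide 1, squares slide 2, filled symbols are above background, open ones not, and the line is the group mean. Htr2a probe 1 separates the groups, with all occlusion arrays at or below -3.68 and all control arrays at or above -3.43, while the other 3 Htr2a probes are open throughout.

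The named probe of Htr1a, the serotonin 1A receptor that lowers neuronal firing through Gi and potassium channels, was printed at 10 spots. It was above background on no occlusion array and on 1 control array, so it did not enter the test. Its levels were -7.09, -6.73, -6.19 and -6.33 on occlusion arrays 1 to 4, against -5.21, -5.61, -3.11 and -5.43 on control arrays 1 to 4. Every occlusion array was below every control array, and control 3, where all 10 spots were above background, was far above the rest. Occlusion arrays averaged -6.59 ± 0.41 and control arrays -4.84 ± 1.17 (SD, n = 4 each). Since control 3 was the only array with a reading above background, no fold is given, and the order of the other 7 values is one of signals not well above background.

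A further probe, which the files name only by the accession J05276 and describe as the rat 5-HT1A receptor gene, is outside the 14 and was found by searching the descriptions after values had been seen. It lies 405 bases from the Htr1a probe, at chr2:36356500-36356559 on the plus strand. It was above background on 3 occlusion and all 4 control arrays. The levels were -6.42, -4.21, -4.11 and -4.18 on occlusion arrays 1 to 4, against -3.40, -3.42, -1.14 and -3.62 on control arrays 1 to 4. Again every occlusion array was below every control array, with control 3 highest and occlusion 1 lowest. The difference was -1.83 (SE 0.70, limma adjusted p = 0.416), -1.75 within slide 1 and -1.92 within slide 2. Without control 3 it was -1.25. Without occlusion 1, the only array where this probe was not above background, the difference was -1.27. Without the 3 arrays that stood apart, chosen after seeing the data, it was -1.53 (SE 0.73, n = 3 and 2). The correlation with the named Htr1a probe over the 8 arrays was 0.93, a description that carries no test.

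Control 3 also had the highest level of Emx2, a forebrain transcription factor in the list for cortex and hippocampus. Emx2 had -3.99, -3.18, -3.20 and -2.85 on occlusion arrays 1 to 4, against -0.50, -0.55, 0.83 and -1.91 on control arrays 1 to 4, so its groups did not overlap. Other genes of the list were lowest on control 3, namely Slc17a7 at -5.58, Neurod2 at -7.34, Neurod6 at -3.87 and Prox1 at -6.83. Over the whole list 4 of 6 measured genes were higher on occlusion arrays (median difference 0.21), with list means of -3.76 to -3.03 on occlusion and -3.57 to -2.28 on control arrays. Prox1, among the 4, was above background on no control array and passed the filter through the occlusion arrays alone. Emx1 was above background on no array. The part of these genes in the Htr1a readings was not tested.

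Htr1b encodes the serotonin 1B receptor, a presynaptic receptor that limits transmitter release. Its probe had levels of -4.87, -4.77, -4.96 and -5.04 on occlusion arrays 1 to 4, all above background, against -5.56, -6.09, -5.06 and -5.19 on control arrays 1 to 4, of which control 3 alone was above background. All occlusion arrays were above all control arrays, by a narrow gap between occlusion 4 and control 3, and with quantile normalisation the groups overlapped. The difference was 0.56 (SE 0.22, limma adjusted p = 0.423), 0.46 within slide 1 and 0.67 within slide 2. It was 0.36 without control 2. On slide 1 no control array was above background, and without control 3 none was at all, so the size of this difference is not well measured.

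Htr1d encodes the serotonin 1D receptor, a close relative of Htr1b that is also found on nerve terminals. It ran the other way. The levels were -6.10, -5.45, -4.46 and -5.57 on occlusion arrays 1 to 4, of which occlusion 3 alone was above background. The control arrays 1 to 4, all above background, had -4.27, -4.22, -5.06 and -4.41. The groups overlapped through occlusion 3 and control 3. The difference was -0.90 (SE 0.34, limma adjusted p = 0.417), -0.94 within slide 1 and -0.87 within slide 2. On slide 2 no occlusion array was above background, and without occlusion 3 none was at all, so the size of this difference is not well measured either. Htr1f, the serotonin 1F receptor, was above background on control 3 alone, at -4.48, and had levels of -7.73 to -5.77 on occlusion arrays.

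**Figure D3:**
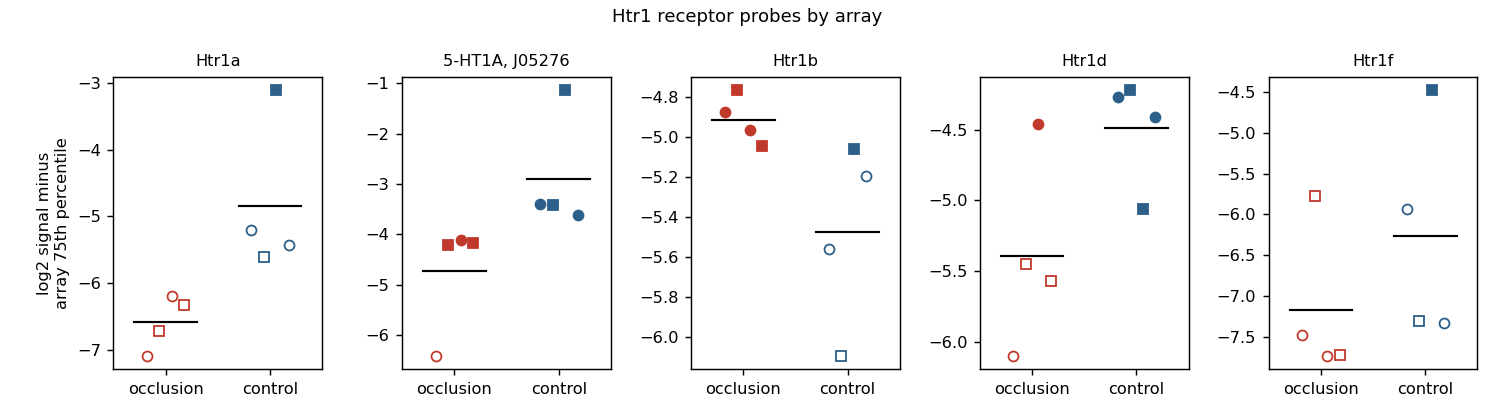
Level of each Htr1 probe and of the probe named J05276 (vertical axis, log2 signal minus the 75th percentile of the array, a separate scale per panel) on the 4 occlusion and 4 control arrays. Circles are slide 1, squares slide 2, filled symbols are above background, open ones not, and the line is the group mean. Control 3 is the highest point for Htr1a at -3.11, J05276 at -1.14 and Htr1f at -4.48.

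Htr5b encodes a serotonin receptor of the Htr5 family. Its probe (chr13:33548668-33548727, minus strand) varied more over the 8 arrays than any other receptor probe that passed the filter. The range was 4.89, and 99.7% of all tested probes had a smaller one (median 0.77). The levels were -1.61, -0.01, -4.25 and -0.25 on occlusion arrays 1 to 4, against -0.03, 0.64, -2.15 and -2.64 on control arrays 1 to 4. Both groups held high and low arrays. The difference was -0.49 (SE 1.07, 95% interval -2.95 to 1.97, limma adjusted p = 0.901). It was -1.60 within slide 1 and 0.62 within slide 2, and 0.42 without occlusion 3.

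The 3 low habenula arrays named above were the 3 arrays with the lowest Htr5b. Over the 8 arrays the Htr5b level followed the mean of 7 habenula marker genes, with Pearson's r of 0.86 and Spearman's rho of 0.90, and an r of 0.88 after the group means were removed. It ran against the mean of the hypothalamus list, with r of -0.87 and rho of -0.93. With the inhibitory neuron list its r was -0.63, and -0.85 after the group means were removed. With the raphe list, a mean of 4 genes, the values were -0.61 and -0.82. With the astrocyte list they were 0.67 and 0.72. The gene most like Htr5b among 13016 genes was Slc5a7, the choline transporter of cholinergic neurons and itself one of the habenula markers (r = 0.988, rho = 0.976). The next were RGD1561972 (r = 0.984) and Gng8, a G protein gamma subunit (r = 0.977). Chrna3, a nicotinic receptor subunit typical of the medial habenula, had -3.39 on occlusion 3, -5.85 on control 3 and -1.45 on control 4, against 0.67 to 1.88 on the other 5 arrays. These are descriptions over 8 arrays that share 2 groups and 2 slides. Of the habenula markers 5 of 8 were higher on occlusion arrays (median difference 0.41), and the list means ran from -3.98 to -0.97 on occlusion and from -4.88 to -0.23 on control arrays. Leaving out the 3 low arrays together, an alternative chosen after seeing the data, gave a difference of -0.93 (SE 0.54, n = 3 and 2, adjusted p = 0.603).

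**Figure D4:**
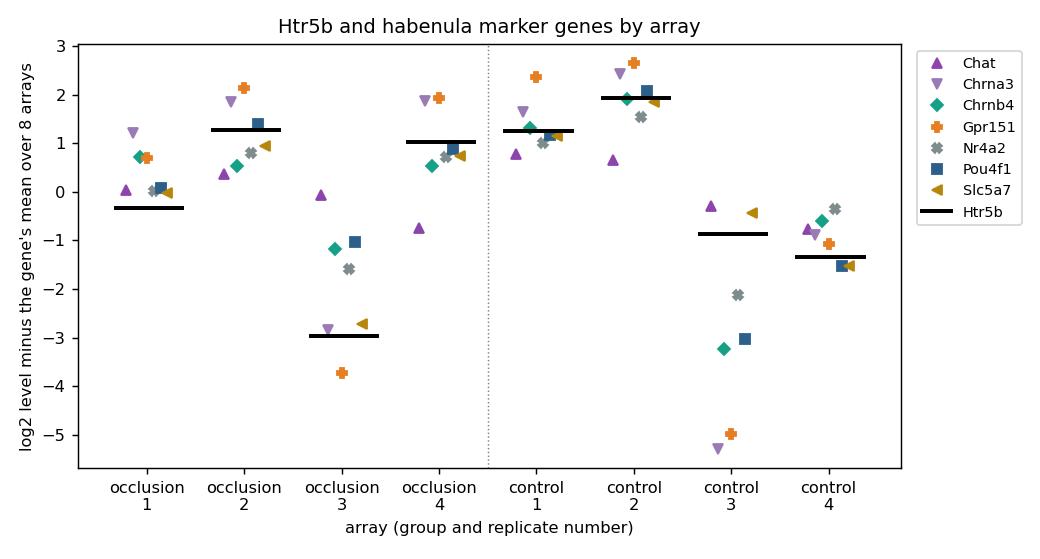
Levels of Htr5b (black bars) and of 7 habenula marker genes (symbols) on each array, as log2 level minus the mean of that gene over the 8 arrays (vertical axis), with occlusion arrays left of the dotted line. Htr5b is lowest on occlusion 3, control 3 and control 4, where most of the markers are also low.

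Of the Gs-coupled receptors, none passed the test. Htr4, the serotonin 4 receptor, was above background on no array. Htr6, the serotonin 6 receptor, was above background on 2 arrays of each group, with levels of -4.17, -5.37, -4.73 and -6.64 on occlusion arrays 1 to 4, against -4.60, -4.83, -5.78 and -5.54 on control arrays 1 to 4. Its difference was -0.04 (SE 0.52, 95% interval -1.22 to 1.15, adjusted p = 0.988), with 0.62 on slide 1 and -0.69 on slide 2. The slides went opposite ways, so no direction is given for Htr6.

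Htr7 encodes the serotonin 7 receptor. Its probe 1 (chr1:240308991-240309050, minus strand) had levels of 2.27, 1.57, 1.67 and 1.96 on occlusion arrays 1 to 4, against 1.39, 0.88, 1.49 and 1.88 on control arrays 1 to 4. The groups overlapped through control 4. The difference was 0.46 (SE 0.24, 95% interval -0.09 to 0.998, limma adjusted p = 0.497). Probe 2 (chr1:240319318-240319377), 10327 bases away, had -3.30 to -2.54 on occlusion and -3.28 to -2.36 on control arrays, with a difference of -0.02 (SE 0.24, adjusted p = 0.988). A further probe, named by the accession U68491 and described as the 5-HT7 receptor gene, lies 1391 bases from probe 1, at chr1:240310382-240310441. It had -2.54 to -1.68 on occlusion and -2.56 to -2.07 on control arrays, with a difference of 0.22 (SE 0.20, adjusted p = 0.704). The 3 Htr7 probes were above background on all 8 arrays, and over all 8 arrays none separated the groups. The difference of probe 1 was 0.28 without control 2. Without the 3 arrays that stood apart (n = 3 and 2), probe 1 gave 0.80 (SE 0.27, limma adjusted p = 0.399) and probe 2 gave 0.45 (SE 0.19, limma adjusted p = 0.463). That alternative was chosen after seeing the data.

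**Figure D5:**
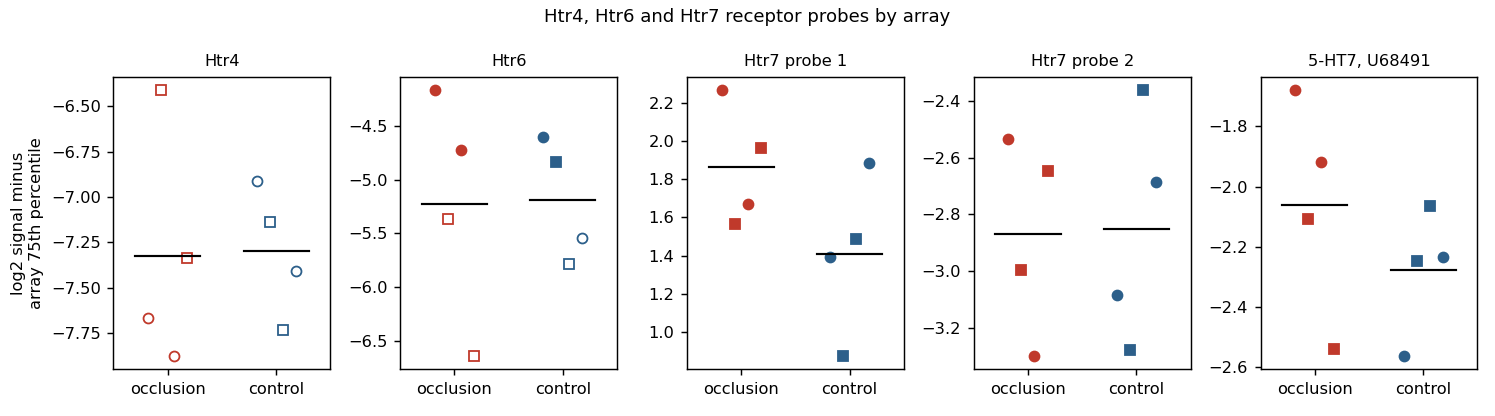
Level of each probe of the Gs-coupled receptors and of the probe named U68491 (vertical axis, log2 signal minus the 75th percentile of the array, a separate scale per panel) on the 4 occlusion and 4 control arrays. Circles are slide 1, squares slide 2, filled symbols are above background, open ones not, and the line is the group mean. The groups overlap in every panel, and Htr4 is open throughout.

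Genes with the most similar pattern over the 8 arrays were named for the other measured receptors too, as a description. For Htr2a probe 1 they were Cdkl3 (r = 0.971), Poglut1 (r = 0.967) and Clip4 (r = 0.961). For Htr2c they were Ubl3 (r = 0.984), Lrp6 (r = 0.982) and Ccdc81 (r = 0.981). For Htr1b they were Etv5 (r = 0.977), Kalrn (r = 0.969) and Or2y12 (r = 0.962), and for Htr1d Tppp3 (r = 0.977), Rcl1 (r = 0.968) and Glod5 (r = 0.968). For Htr7 they were RGD1305239 (r = 0.967), Ppp1r13b (r = 0.964) and Vopp1 (r = 0.964), and for Htr6 LOC686634 (r = 0.966), Tmbim4 (r = 0.945) and Ptrf (r = 0.939). The number of genes with an r over 0.9 among the 13016 searched was lowest for Htr6, at 15, and highest for Htr2c, at 185.

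The remaining serotonin receptor genes on the array did not pass the test either. Htr5a, the other receptor of the Htr5 family, had a difference of -0.39 (SE 0.22, adjusted p = 0.523). Htr2b had a difference of -0.08 and Htr3a, a subunit of the serotonin-gated ion channel, one of -0.18, and Htr3b was not above background on enough arrays to be tested.

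Among 17 measured genes of serotonin synthesis, transport and breakdown, 0 passed the test, 6 were higher and 11 lower on occlusion arrays (median difference -0.14). Tph2, the rate-limiting synthesis enzyme of raphe neurons, was above background on 3 occlusion and 2 control arrays, with a difference of -0.84 (SE 0.57, adjusted p = 0.599). Fev, the transcription factor that marks raphe serotonin neurons, was above background on no array. Slc6a4, the serotonin transporter, was above background on 2 occlusion and 3 control arrays and had -0.19 (SE 0.54). Slc22a3, a low-affinity transporter that takes up serotonin, had 1.07 (SE 0.36, adjusted p = 0.403), and Slc18a1, a vesicular monoamine transporter, had -0.38 (SE 0.15, adjusted p = 0.431). Tph1 and Slc18a2 had wide spreads within the groups, with differences of -1.72 (SE 1.54) and -1.50 (SE 1.03).

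The downstream coupling genes were counted by receptor class, and 0 of them passed the test in any class. In the Gi and Go class, 7 of 13 measured genes were higher (median 0.08), among them Gnao1, the Go alpha subunit, at 0.56 (SE 0.12, adjusted p = 0.403) and Kcnj9, a potassium channel opened by Gi-coupled receptors, at 1.24 (SE 0.35, adjusted p = 0.403). Lower in that class were Gnai3, a Gi alpha subunit, at -0.33 (SE 0.15) and Rgs10, a regulator that speeds G protein inactivation, at -0.32 (SE 0.16). In the Gq class, 6 of 14 were higher (median -0.05). Plcb4, a phospholipase C, had 0.86 (SE 0.42, n = 2 occlusion and 3 control arrays). Gna14, a Gq-family alpha subunit, had -0.99 (SE 0.33). In the Gs class, 10 of 15 were higher (median 0.13), with Gnal, an alpha subunit that activates adenylyl cyclase, at 0.36 (SE 0.13). The calcium-stimulated cyclase Adcy1 had 0.68 (SE 0.27), above background on all 4 occlusion arrays and on no control array. Adcy1 thus passed the filter through the occlusion arrays alone, so it carries no weight in that count and its size is not well measured. Lower in the Gs class were the cyclases Adcy2 at -0.17 (SE 0.15, n = 3 occlusion and 4 control arrays) and Adcy6 at -0.08 (SE 0.10). Of 15 receptor partners 10 were higher (median 0.15), with S100a10, which binds Htr1b and Htr4, at 0.63 (SE 0.21) and the scaffold Dlg4 at 0.38 (SE 0.13). Lower among them were Cav1, a caveolar coat protein, at -0.32 (SE 0.24) and Arrb2, an arrestin, at -0.20 (SE 0.14). The markers of relay and inhibitory neurons leaned up and down on occlusion arrays as given above, and their part was not tested.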

How the data were processed

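Rat medial thalamus was measured on 8 single-colour Agilent arrays, 4 occlusion and 4 control, with 1 µg of total RNA each. Groups and replicate numbers came from the labels, and replicates were taken as separate animals. Spots were read with Agilent Feature Extraction 9.5.1.1, per the file headers. The deposited intensity used here is the processed signal, background-subtracted and not normalised between arrays. A combined deposited table of this intensity, with fewer digits, served as an alternative.

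Control spots and outlier-flagged spots were left out, log2 signal minus the 75th percentile of each array was taken, and spots of a probe were averaged. A probe counted as above background when over 50% of its spots were. Of 41012 probes, 27152 passed the filter (above background on at least 4 of 8 arrays, at least 2 values per group). Groups were compared with limma 3.58.1 in R 4.3.3 (two-sided, Benjamini-Hochberg, threshold 0.05), a step also tested on simulated data. Each slide, scanned as 1 batch, held 2 arrays per group. A gene in a list was read with its brightest probe, and the number of arrays limits the precision.

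Named genes are all receptor probes, the 3 genes most like each measured receptor, and the 2 highest and 2 lowest statistics of each list, with further list members where a sentence needs them. Some genes that the rule takes are not reported here. Members and lists were chosen with earlier results of these data known. Alternatives changed the normalisation, background correction, filter, flags, variance model, slide and replicate blocks, the table and the arrays included. Same-numbered arrays correlated from -0.29 to 0.51 after group means were removed, and arrays with different numbers from -0.43 to 0.33. With so few arrays this does not settle whether the numbers pair them. The main fit took them as unpaired, and the replicate block was an alternative.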

Additional observations from a re-analysis of the deposited data

Results flagged for a closer look

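An array far from the other 3 of its group by Dixon's test was found in 8 of 75 gene and group combinations, and chance gives about 1 in 20. On control 3, Htr1a had a level of -3.11, against -5.61 to -5.21 on the other control arrays, and the J05276 probe had -1.14, against -3.62 to -3.40. On occlusion 1, the J05276 probe had -6.42, against -4.21 to -4.11 on the other occlusion arrays, and Tph2 had -7.28, against -5.02 to -4.75. Htr1f had -5.77 on occlusion 2, against -7.73 to -7.47, a range below background throughout. Among downstream genes, Plcb3 had -3.13 on control 4, against -2.61 to -2.58, Adcy6 had 2.05 on control 2, against 2.18 to 2.19, and Cav1 had -1.85 on control 2, against -1.61 to -1.56.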

How the results depend on the processing

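Under all 21 alternatives, 1 of them chosen after seeing the data, 0 receptor probes passed the threshold. Over all probes the count was also 0 except with normexp background correction, where it was 1: the probe named XM_215473, seen only after the fact, had a difference of 1.24 (adjusted p = 0.0478). Normexp also moved Htr2a probe 1 to -0.75, J05276 to -0.97, Htr1b to 0.21 and Htr1d to -0.32, with the Htr1b groups overlapping, as they also did with quantile normalisation (0.49). Leaving out 1 array gave 0 receptor probes and 0 probes in all, with smallest adjusted p from 0.116 to 0.655. The replicate block gave 0 probes (smallest adjusted p 0.453), and 2 receptor probes at an unadjusted p under 0.05. The direction turned for 3 probes. Htr7 probe 2 gave 0.0062 with quantile normalisation, 0.0085 with median scaling, 0.45 without the 3 arrays lowest in habenula markers, and -0.16 to 0.15 with 1 array left out. Htr6 gave 0.050 with normexp, 0.62 on slide 1 alone and -0.39 to 0.43 with 1 array left out. Htr5b gave 0.62 on slide 2 alone and -1.02 to 0.42 with 1 array left out. The cause was not tested. Htr2a probe 1, Htr2c, Htr1b, Htr1d, Htr7 probe 1 and J05276 kept their direction under each alternative that gave them a value. Htr1b, Htr1d and J05276 have none under the filter on all 8 arrays. Receptor probes near background, such as Htr1b and Htr1d, are limited by the signal over background.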
